A study of Bubalus bubalis with 36 samples.

Results

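Back subcutaneous fat was set against inguinal fat from the same 6 buffaloes, with microRNA (miRNA) read counts from small RNA sequencing. All libraries of these depots entered, 6 from the back and 6 from the inguinal region, which is 12 of the 36 libraries of the study. The other 24 came from sternal, omental, pericardial and perirenal fat of the same animals. Per the labels, every animal was a water buffalo (Bubalus bubalis) weaned at 3 months of age, put on fattening at 15 months and slaughtered at 20 months. The labels give no treatment and no difference between the groups other than the site of the fat. The study's text counts both depots as subcutaneous and asks how miRNA levels differ between depots. The libraries came from whole tissue, in which fewer cells of a type cannot be told apart from less RNA per cell.

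miRNAs are short RNAs that pair with messenger RNAs through a seed near their 5′ end and lower the output of those messages. Related miRNAs are often transcribed together from 1 cluster, so the members of a cluster tend to share their level. Several are coded inside the HOX clusters, whose genes mark position along the body axis. Others are characteristic of 1 cell lineage, such as red blood cells or leukocytes, and appear in whole fat when that lineage is present in the tissue.

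The 12 libraries held 11175382 to 13448792 counted reads. Totals averaged 12821403 ± 377949 in back and 12080130 ± 928042 in inguinal fat (SD, n = 6 each, exact sign-flip permutation test over the 6 pairs, two-sided p = 0.156). A smallest p of 0.0312 can be reached with 6 pairs. Each library detected 882 to 981 of the 1682 features, with means of 943 in back and 901 in inguinal fat (exact p = 0.125). Candidate loci, listed by an identifier without a miRNA name, took 23.0% of the reads in back and 23.2% in inguinal fat (exact p = 0.906). miRNAs known from fat cells were present in both depots: over the 12 libraries miR-143 ran from 20915 to 39114 CPM (reads scaled to a common library total), miR-26b from 10228 to 16084 and miR-103 from 331 to 1012. miR-378, coded within a gene of mitochondrial regulation, ran from 37.4 to 5512 CPM. miR-107 of the same set was scarce, at 0.357 to 10.5 CPM.

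The filter on low counts left 524 features for the test, of which 327 carried a miRNA name and 197 were candidate loci. Among named miRNAs with a mean of at least 10 CPM, the 5 largest fitted differences were in miR-375, miR-3432a and the HOX-cluster miRNA miR-196a, lower in back, and in miR-486 and miR-451 of red blood cells, higher in back. None of the 524 passed an adjusted p of 0.05 in the edgeR quasi-likelihood test with the animal as a block (0 called, 0%), and the smallest adjusted p was 0.341. At an unadjusted p under 0.05 there were 50 features (9.54%), 29 higher in back (5.53%) and 21 lower in back (4.01%). DESeq2 with the same block called 9, and edgeR without a filter on low counts called 12. Differences below are log2 of back over inguinal with their SE, positive where back was higher, and a 95% interval where one is given.

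The precision bounds what this comparison could miss. The median SE was 0.40, and a 95% interval reached a median of 0.90 to either side of the fitted log2 difference. The whole interval lay within a 2-fold change either way for 149 of the 524 features. Among the 78 features with a mean of at least 1000 CPM, 43 were bounded in this way. For no feature did the interval lie wholly beyond a 2-fold difference, although 44 were fitted at more than 2-fold. The median of all fitted differences was 0.03, with 269 above and 255 below 0.

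**Figure D1:**
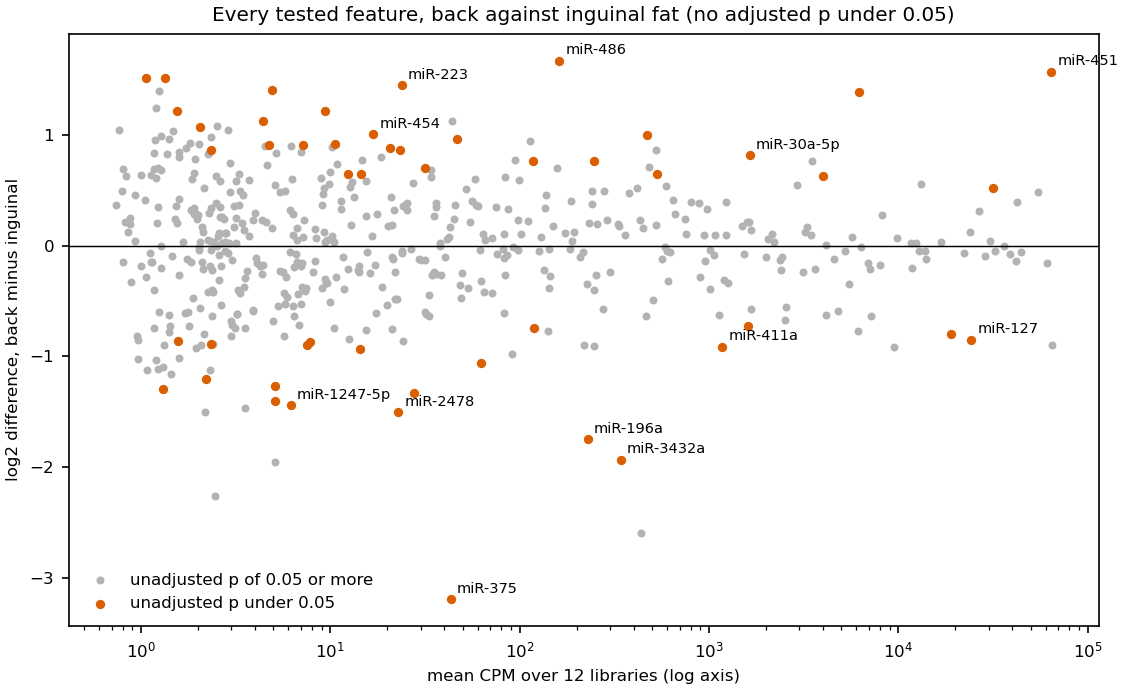
Log2 difference of back over inguinal fat (vertical axis) against mean CPM over the 12 libraries (horizontal log axis) for the 524 features tested, with the 50 at an unadjusted p under 0.05 in orange. No feature passed after adjustment. The orange points lie on both sides of 0, 29 above and 21 below.

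Of the HOX-cluster miRNAs 5 were in the table and 4 were tested: 0 of the 4 were higher and 1 was lower in back at an unadjusted p under 0.05, beside 5.53% and 4.01% of all features, and their median difference was −0.34, beside 0.03 over all features. miR-196a, which lies in the HOXB and HOXC clusters and represses HOX messages such as HOXB8, had 27.04 CPM in the lowest back library, a median of 127 and 183 in the highest. In inguinal fat its lowest, median and highest values were 191, 313 and 539 CPM. The 6 back libraries were thus all below the 6 inguinal ones, and the depots did not overlap. The means were 116 ± 70.5 and 342 ± 154 CPM (SD, n = 6 each). The fitted difference was −1.75 ± 0.48 (95% interval −2.82 to −0.67, adjusted p = 0.341). Every animal had less miR-196a in back, by −3.28 in animal 1, −2.82 in animal 6, −2.30 in animal 4 and −1.46 in animal 5, but by −0.43 in animal 2 and −0.14 in animal 3. In only 3 of the 524 features (0.573%) did the 6 back and 6 inguinal libraries not overlap. The other two, both above in back, were miR-22-5p, with 280 to 425 against 209 to 263 CPM and a difference of 0.49 ± 0.22 (adjusted p = 0.507), and 1 candidate locus.

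miR-196b, which shares its seed with miR-196a and lies in the HOXA cluster, was the more abundant of the pair. It averaged 1979 ± 1140 CPM in back and 3066 ± 1424 in inguinal fat (SD, n = 6 each), with overlapping libraries. Its difference was −0.67 ± 0.45 (adjusted p = 0.674), lower in back in 4 of 6 animals. Most of that lay in animal 1, at −3.11. Reads can be divided between such near-identical miRNAs by counting, so both were also summed, which gave −0.74 ± 0.43 (unadjusted p from the edgeR model 0.121). miR-10a and miR-10b, coded beside the HOX4 genes and so marking a more anterior part of the axis, were level between the depots: miR-10b averaged 12545 CPM in back and 12152 in inguinal fat, with an interval of −0.49 to 0.54. miR-10a averaged 585 and 586 CPM with an interval of −0.48 to 0.46. Both intervals exclude a 2-fold difference.

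**Figure D2:**
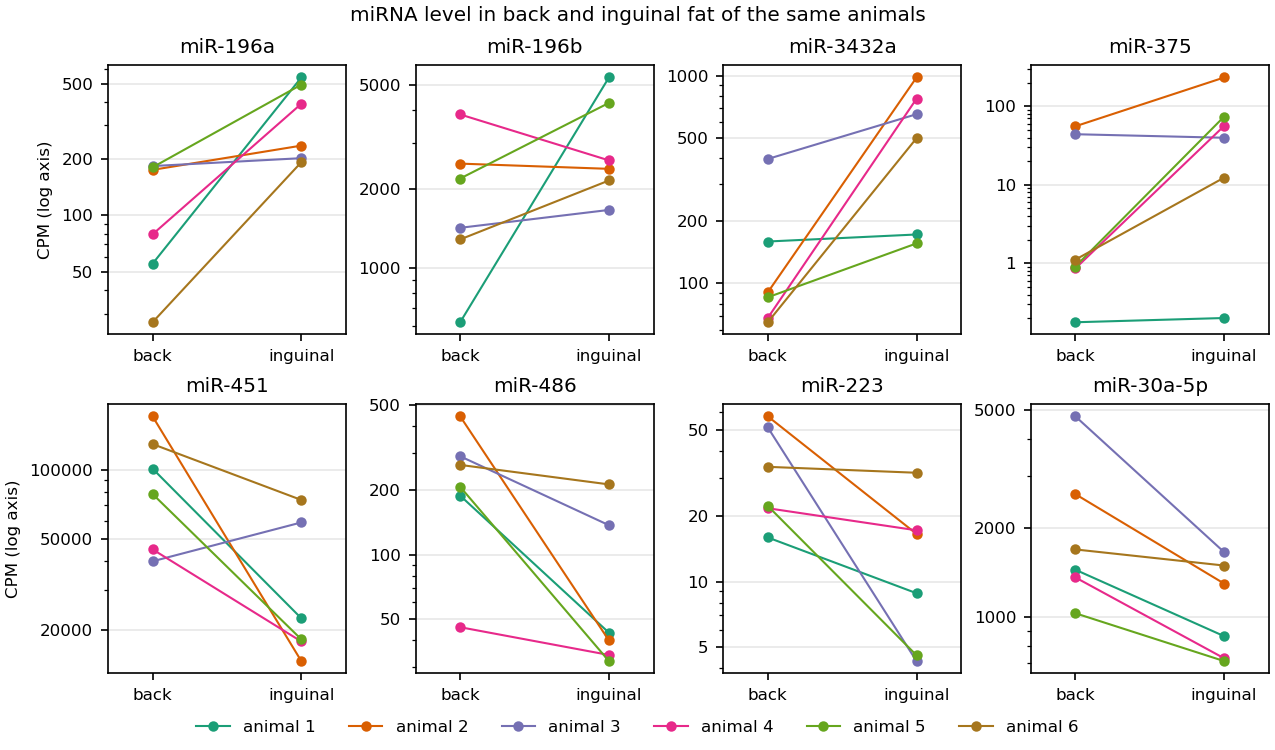
CPM (log axis) of 8 miRNAs in back and inguinal fat, with 1 line per animal joining its 2 libraries. miR-196a is the panel in which the depots do not overlap, with every line going up from back to inguinal fat, while miR-451, miR-486 and miR-223 mostly go down.

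The other 4 depots place these levels on a wider scale, as CPM scaled over all 36 libraries and given without a test. miR-196a averaged 360 in inguinal, 216 in perirenal and 124 in back fat, then 18.0 in sternal, 7.82 in omental and 0.728 in pericardial fat. The libraries of back and sternal fat did not overlap, with 28.4 as the lowest in back and 26.2 as the highest in sternal fat. The perirenal range of 139 to 369 overlapped those of both back and inguinal fat. miR-196b kept the same order of means, at 3229 in inguinal, 2629 in perirenal, 2143 in back, 1181 in sternal, 85.9 in omental and 14.9 in pericardial fat, and the first 4 of these overlapped.

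Sternal fat, the other subcutaneous depot, was tested against the mean of back and inguinal fat in 1 fit over all 36 libraries with the animal as a block, where 8 of 667 features were called (1.2%), 4 in each direction. miR-196a was lower in sternal fat by −3.50 ± 0.64 (adjusted p = 0.00409) and miR-451 by −1.58 ± 0.36 (adjusted p = 0.0173). miR-10a was higher in sternal fat by 1.22 ± 0.26 (adjusted p = 0.0108) and so was miR-1247-5p by 1.97 ± 0.41 (adjusted p = 0.00892). miR-381 at −1.45 ± 0.36 (adjusted p = 0.0379) and miR-3431 at −1.16 ± 0.30 (adjusted p = 0.0421) were the other named miRNAs. Without the animal block 1 feature was called, miR-196a, and the adjusted p of miR-10a was 0.0557 and that of miR-451 0.0616. Between 3 and 9 features were called when 1 animal was left out, 3 without animal 4 and 4 without animal 2. The adjusted p of miR-196a stayed under 0.05 without any 1 animal (at most 0.0332), while that of miR-10a was 0.0696 without animal 4 and that of miR-451 was above 0.05 without any 1 animal except animal 3. The adjusted p of miR-1247-5p was 0.0574 without animal 2, and miR-381 and miR-3431 passed without animal 6 but not without any other 1 animal.

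**Figure D3:**
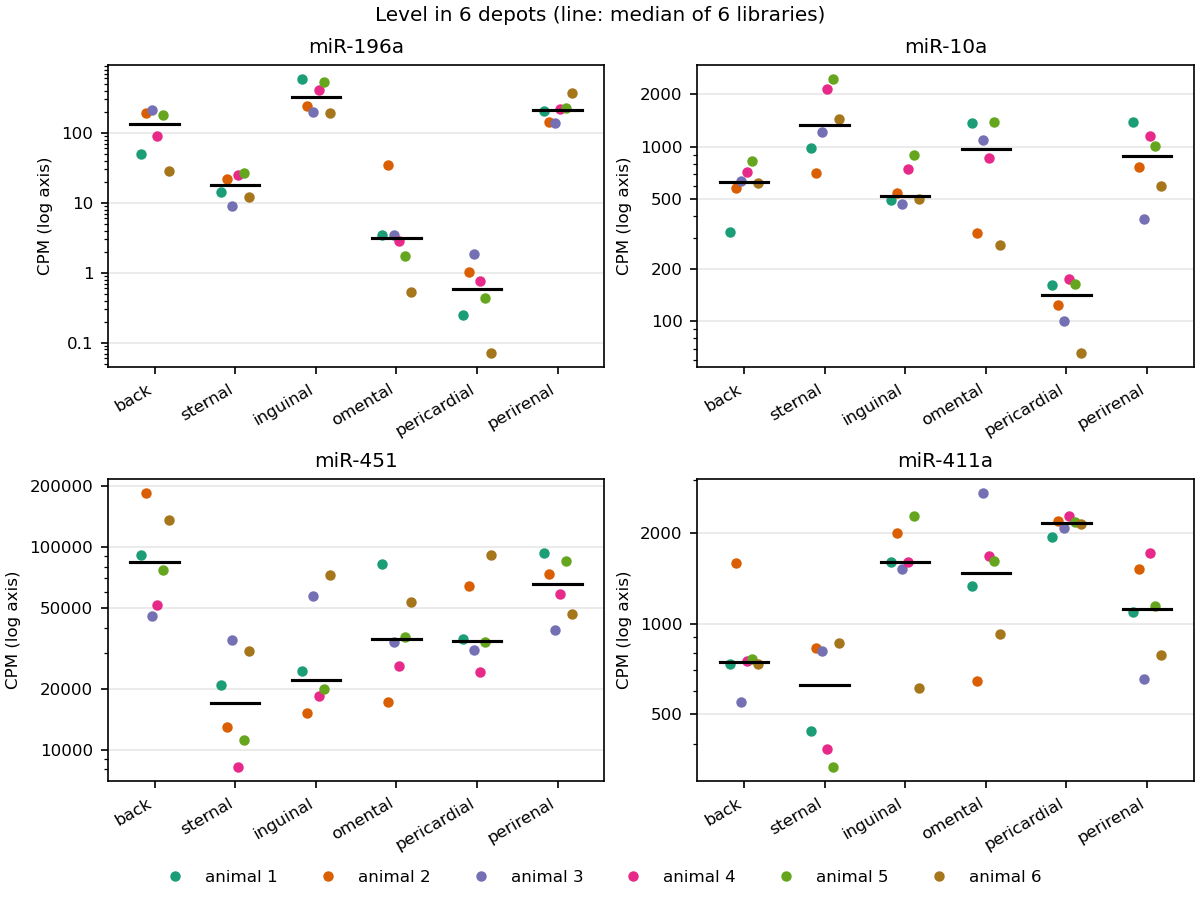
CPM (log axis, scaled over 36 libraries) of miR-196a, miR-10a, miR-451 and miR-411a in each of the 6 depots, with 1 point per animal and a line at the median. Inguinal and back fat lie in the upper part of a wide range of miR-196a, at means of 360 and 124, and close together for miR-10a, at 610 and 620.

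Red blood cell miRNAs were higher in back fat in most animals: all 3 tested members of the list, miR-451, miR-144 and miR-486, were above 0, each at an unadjusted p under 0.05, against 5.53% of all features, with a median of 1.57. None passed after adjustment. miR-451 and miR-144 come from 1 cluster that is active as red blood cells mature, and miR-486 is abundant in the same cells and in muscle. miR-451 was among the 5 most abundant miRNAs. It ran from 39894 to 170447 CPM with a median of 89624 in back, and from 14683 to 73752 with a median of 20399 in inguinal fat. The depots overlapped, and animal 3 went the other way at −0.56, while the other 5 ranged from 0.81 to 3.54. The difference was 1.57 ± 0.48 (95% interval 0.48 to 2.67, adjusted p = 0.373). miR-486 averaged 240 ± 131 CPM in back and 83.3 ± 75.4 in inguinal fat, higher in back in 6 of 6 animals, by 1.67 ± 0.48 (adjusted p = 0.341). miR-144, at 11.2 and 7.61 CPM, differed by 1.22 ± 0.50 (adjusted p = 0.462). Over the 6 depots back had the highest mean of miR-451 (97855 CPM) and of miR-486 (253 CPM), while sternal fat had the lowest of both (19840 and 47.6 CPM). The scarcer miR-144 did not follow this order. Its mean was higher in perirenal and in omental fat than in back, and was lowest in inguinal fat, just below sternal fat.

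Leukocyte miRNAs went different ways in different animals. Of 8 tested, 4 were fitted above and 4 below 0, with a median of 0.00. In animals 4 and 5, 7 of the 8 were higher in back, and in animal 6, 6 of the 8 were lower, with a median of −1.53. Over all 524 features 275 and 297 were higher in back in animals 4 and 5. In animal 6, 297 of all features were lower, with a median of −0.18. miR-142-3p and miR-142-5p, found across leukocytes, were fitted at 1.04 and 0.05, but at −0.43 and −1.46 without the animal block. The 1 member at an unadjusted p under 0.05, beside 9.54% of all features, was miR-223, the miRNA of neutrophils and other myeloid cells, with 16.0 to 57.6 CPM and a median of 28.0 in back and 4.30 to 31.7 with a median of 12.7 in inguinal fat. It was higher in back in 6 of 6 animals, by 1.45 ± 0.48 (adjusted p = 0.388), although by only 0.09 in animal 6. miR-150, the miRNA of mature lymphocytes, ran from 1308 to 5487 CPM in back and from 1594 to 22434 in inguinal fat, where animal 6 held the top value. Its difference was −0.59 (95% interval −1.64 to 0.46). miR-155, raised in activated lymphocytes and macrophages, had its highest value, 3569 CPM, in the same inguinal library, and its difference was −0.04 (−1.07 to 0.99). Without animal 6 it was 0.32. The share of blood cells in any piece was not measured, and its part in these values was not tested.

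The imprinted DLK1-DIO3 cluster, a large group of miRNAs expressed from the maternal chromosome, leaned lower in back. The table lists 57 of its features and 33 were tested, 28 of them fitted below 0 and 5 above, with a median of −0.41 beside 0.03 over all features. At an unadjusted p under 0.05 there were 5 of the 33 lower and 0 higher in back, beside 4.01% and 5.53% of all features, and none passed after adjustment. The members come from 1 locus and are not independent of each other. Their summed level had a median of 17802 CPM in back and 36615 in inguinal fat. miR-127, an antisense regulator of the RTL1 message, gave most of it, with 9093 to 29060 CPM and a median of 16485 in back and 13620 to 44406 with a median of 33727 in inguinal fat. It was lower in back in 5 of 6 animals, by −0.85 ± 0.28 (95% interval −1.49 to −0.21, adjusted p = 0.388).

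miR-411a averaged 813 ± 336 CPM in back and 1535 ± 512 in inguinal fat, a difference of −0.91 ± 0.29 (adjusted p = 0.388). 5 of the 6 inguinal libraries lay between 1478 and 2085 CPM, above all back libraries, and that of animal 6 stood apart at 616. miR-379 of the same stretch of the cluster differed by −0.75 ± 0.26 (adjusted p = 0.388) and was lower in back in 6 of 6 animals. miR-376b, at 9.52 and 19.0 CPM, differed by −0.93 ± 0.38 (adjusted p = 0.452). miR-1247-5p, beside DIO3, was the scarce member with the largest difference, at 2.74 CPM in back and 9.60 in inguinal fat, −1.44 ± 0.39 (adjusted p = 0.341).

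The lean of the cluster was uneven between animals. In animal 1, 32 of the 33 members were lower in back, in animal 4, 28, in animal 2, 26, and in animal 5, 23. In animal 3 only 11 were lower and in animal 6 only 14. Over all 524 features the number lower in back ran from 227 to 297 per animal. miR-127 and miR-411a were lower in back in animal 3 too (−1.35 and −1.69), so the members did not go one way there. Over the 6 depots miR-411a was highest in pericardial fat (2130 CPM) and lowest in sternal fat (610 CPM), with inguinal fat at 1602 and back at 854.

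**Figure D4:**
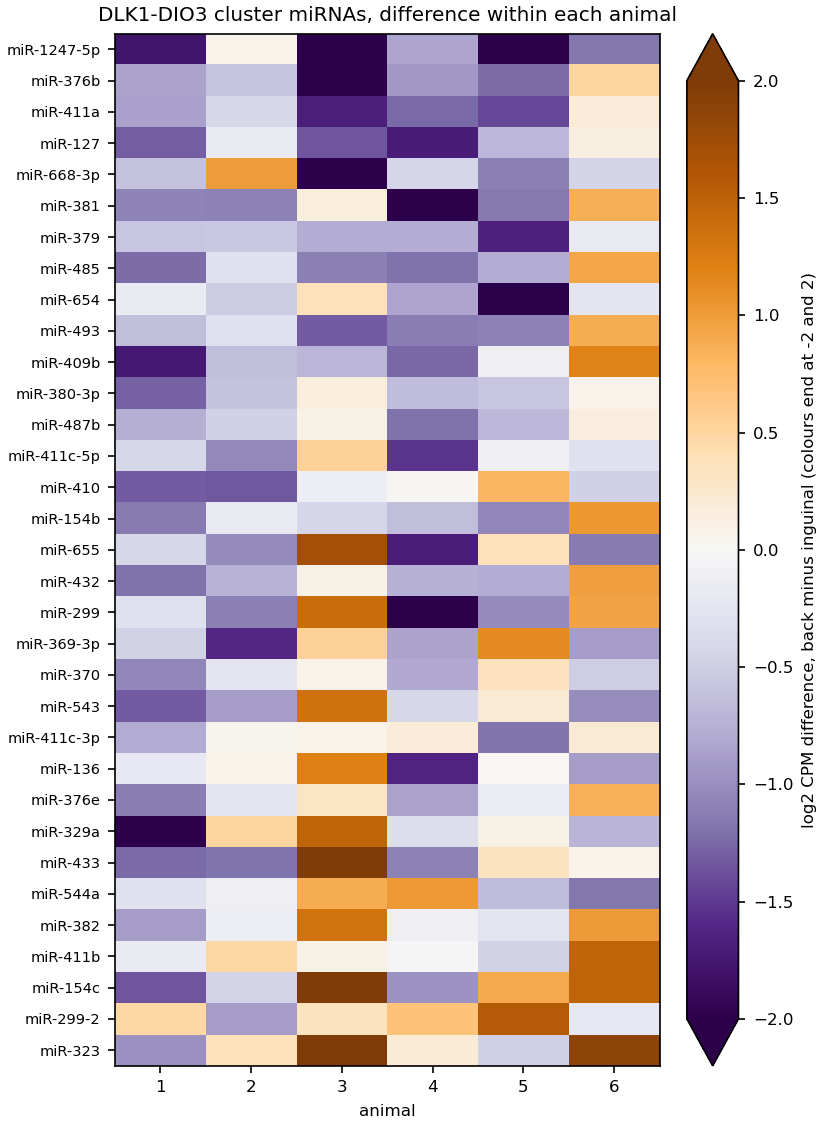
Log2 difference of back over inguinal fat for the 33 tested members of the DLK1-DIO3 cluster (rows) in each of the 6 animals (columns), with the colour scale ending at 2 in each direction. The column of animal 1 is lower in back in 32 of 33 rows and that of animal 3 in 11.

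miRNAs reported to promote fat cell formation were more often fitted above than below 0, but unevenly between animals. Among 27 tested members of the list of miRNAs reported to promote adipogenesis, 21 were fitted above and 6 below 0, with a median of 0.21. At an unadjusted p under 0.05 there were 2 higher and 1 lower in back, beside 5.53% and 4.01% of all features. The list median was −0.29 in animal 6, where 17 of the 27 were lower in back, and −0.04 in animal 2. In animals 1, 3, 4 and 5 it ran from 0.15 to 0.94. Over all 524 features the median ran from −0.18 in animal 6, where 297 were lower in back, to 0.16 in animal 5. miR-30a-5p, of a family that favours adipocyte differentiation by targeting RUNX2, ran from 1030 to 4770 CPM with a median of 1569 in back and from 710 to 1658 with a median of 1080 in inguinal fat. It was higher in back in 6 of 6 animals, by 0.82 ± 0.23 (95% interval 0.29 to 1.35, adjusted p = 0.341). miR-30d of the same family averaged 667 and 398 CPM and differed by 0.65 ± 0.25 (adjusted p = 0.452). All 6 tested members of the miR-30 family, which share a seed and belong to the list above, were fitted above 0, with a median of 0.43. The animals differed: 4 of the 6 members were lower in back in animal 1 (median −0.12) and in animal 6 (−0.35), while the median was 1.52 in animal 3.

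miR-375, known from pancreatic islet cells and also reported to promote adipogenesis in culture, gave the largest difference among the miRNAs with at least 10 CPM, −3.19 ± 1.03 (95% interval −5.52 to −0.87, adjusted p = 0.388). Its values were scattered: 0.177 to 55.7 CPM with a median of 1.01 in back, and 0.201 to 233 with a median of 48.0 in inguinal fat. Animals 4 and 5 were lower in back by −5.79 and −6.12, while animals 1 and 3 were at −0.10 and 0.15. miR-143, an abundant promoter of adipogenesis, was level, at 27819 and 29451 CPM with an interval of −0.63 to 0.45. miR-103, which acts on insulin signalling, averaged 702 and 483 CPM, a difference of 0.54 ± 0.26 (adjusted p = 0.546).

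Of 16 tested miRNAs reported to restrain adipogenesis, 7 were fitted above and 9 below 0 with a median of −0.04, and none was at an unadjusted p under 0.05. The list of brown and beige fat held 24 tested members, 15 above and 9 below 0, with a median of 0.13. It shared members with both lists above, such as miR-30c with the promoting and miR-27b with the restraining one. The list is not split by direction of action, so its median gives no direction for brown fat. At an unadjusted p under 0.05 the list had miR-196a lower, and miR-365-3p and miR-106b higher in back, 3 of 24 beside 9.54% of all features. miR-365-3p, clustered with miR-193b and tied to brown fat differentiation, averaged 156 and 79.4 CPM, a difference of 0.76 ± 0.30 (adjusted p = 0.452). miR-106b, from a paralogue of the miR-17-92 cluster, differed by 0.97 ± 0.33 (adjusted p = 0.388), with 61.9 and 31.3 CPM.

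Cell cycle miRNAs were more often fitted above than below 0, and none passed after adjustment. Of 12 tested members of the miR-17-92 cluster and its paralogues, 10 were fitted above 0, but with a median of 0.08. Higher in back at an unadjusted p under 0.05 were 2 of the 12, miR-18a and miR-106b. None was lower, beside 5.53% higher and 4.01% lower of all features. miR-18a, at 13.6 and 7.60 CPM, differed by 0.92 ± 0.31 (adjusted p = 0.388). The 5 tested members of the miR-424 and miR-503 cluster, which restrains the cell cycle, were all fitted above 0 with a median of 0.78. Of these 1, miR-424-3p, was at an unadjusted p under 0.05. miR-424-3p averaged 29.7 and 17.2 CPM and differed by 0.87 ± 0.26 (adjusted p = 0.341). The let-7 family, which marks differentiated cells, had 9 of 10 tested members below 0 with a median of −0.07, the farthest being let-7a-3p at −0.39. let-7c averaged 55081 CPM in back, and its difference was −0.15 ± 0.26.

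The remaining families had no or few members at an unadjusted p under 0.05. None of the 8 tested members of the miR-23, miR-27 and miR-24 clusters reached it, and miR-27b, which represses PPARG, averaged 31833 and 32909 CPM (−0.05 ± 0.19). Both endothelial features, the arms of miR-126, were above 0 without reaching it, miR-126-3p at 0.12 ± 0.21. The miR-29 family, which represses collagen messages, had 3 of 5 tested members above 0 with a median of 0.03. All 4 tested members of the miR-148 and miR-152 family were above 0 with a median of 0.41, but all 4 were lower in back in animal 1 (median −1.38), and the median in animal 3 was 2.64. Both tested members of the miR-34 and miR-449 family were below 0. The miR-2284 and miR-2285 family, which is expanded in ruminants, had 20 tested of 113 in the table, 13 above and 7 below 0. In each direction 1 of the 20 was at an unadjusted p under 0.05, beside 5.53% higher and 4.01% lower of all features. These were the scarce miR-2284w, at 8.69 and 5.63 CPM (0.91 ± 0.36), and miR-2285dc, at 1.60 and 3.11 CPM (−0.89 ± 0.38).

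Among named miRNAs of no list with at least 10 CPM, miR-3432a, annotated in cattle, had the largest difference. It averaged 144 ± 129 CPM in back and 540 ± 331 in inguinal fat, lower in back in 6 of 6 animals, by −1.93 ± 0.56 (95% interval −3.21 to −0.66, adjusted p = 0.341). Animals 2, 4 and 6 were at −3.43, −3.50 and −2.94, and animals 1, 3 and 5 at −0.11, −0.72 and −0.86. Back had the lowest mean of the 6 depots and sternal fat the highest (663 CPM). miR-2478, at 11.6 and 34.1 CPM, differed by −1.50 ± 0.43 (adjusted p = 0.341). miR-454, at 22.5 and 11.1 CPM, was higher in back by 1.01 ± 0.28 and miR-3601, at 626 and 318 CPM, by 1.004 ± 0.29 (adjusted p = 0.341 each). Of all features, 35 (6.68%) went the same way in 6 of 6 animals, 21 higher and 14 lower in back.

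miR-26a and miR-26c, both among the 5 most abundant miRNAs, divided differently between libraries. The counts came without sequences, so how alike the pair are was not checked. miR-26a took more than 91% of their summed reads in both depots of animals 1, 3 and 5, and between 9.28% and 18.6% in both depots of animals 2 and 4. Animal 6 was split, with 7.78% in back and 96.7% in inguinal fat. Over all 36 libraries the share was either 4.95% to 18.6% or 88.9% to 97.3%, and each of the 6 animals had both kinds among its 6 depots, so the share was not fixed by the animal. miR-26a alone differed by −0.89 ± 0.43 and miR-26c by 0.39 ± 0.74. Their sum averaged 103389 CPM in back and 110711 in inguinal fat, a difference of −0.17 ± 0.20. Whether the sequence or the assignment of reads differs between these libraries was not tested.

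Markers of other cell types gave few differences at an unadjusted p under 0.05. Of 4 tested skeletal and cardiac muscle miRNAs 2 were above and 2 below 0, and none was at an unadjusted p under 0.05. miR-206 of skeletal muscle reached 2052 CPM in the back library of animal 2, while the other 11 libraries ran from 1.92 to 67.0. Its difference was 0.41 (95% interval −1.89 to 2.70), and −0.25 without animal 2. In the edgeR fit over all 36 libraries with the animal block it was 2.54 (adjusted p = 0.607). The 8 smooth muscle and stroma miRNAs split 4 and 4. miR-145 of smooth muscle had 2166 CPM in the back library of animal 3 and at most 450 in the other back libraries, and its difference was 0.71 (−0.51 to 1.94). Of 11 tested neural miRNAs 8 were below and 3 above 0, with a median of −0.61. The 1 of the 11 at an unadjusted p under 0.05, beside 9.54% of all features, was miR-129, which was scarce (0.783 and 1.85 CPM). miR-218, at 23.9 and 39.9 CPM, differed by −0.62 (−1.30 to 0.06). Higher in back in 5 of 6 animals were miR-132, at 12.7 and 7.38 CPM (0.67 ± 0.31), and miR-128, at 280 and 200 CPM (0.49 ± 0.29). The median of the neural list was above 0 in animals 1 and 3, at 0.24 and 0.12. All 3 tested kidney and gut miRNAs were below 0 with a median of −0.57, among them miR-194, at 212 and 340 CPM (−1.21 to 0.06). The more abundant miR-192 was close to 0, at 595 and 598 CPM (−0.05 ± 0.30), and was lower in back in 2 of 6 animals. miR-215 was scarce, at 0.937 and 1.55 CPM (−0.60 ± 0.56). The part of these cells in the differences above was not tested.

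Among epithelial miRNAs, miR-200a and miR-429 were high in 1 animal within the 12 libraries of back and inguinal fat. The table lists 9 of this group, of which 4 were tested, and between the depots miR-429 was the 1 at an unadjusted p under 0.05, with means of 5.03 CPM in back and 4.44 in inguinal fat (0.91 ± 0.35). A test among the 6 animals over both depots, added after the data were seen, called 2 of 524 features (0.382%). They were miR-200a (adjusted p = 0.00203) and its cluster neighbour miR-429 (adjusted p = 0.00259). At an unadjusted p under 0.05 the same test had 66 features (12.6%). miR-200a had 30.03 CPM in back and 35.69 in inguinal fat of animal 6 and at most 1.75 elsewhere among the 12 libraries. miR-429 had 23.96 and 23.85 CPM in animal 6 and at most 1.55 elsewhere among them. Other depots held far more in other animals, as CPM scaled over 36 libraries. In perirenal fat of animal 2 miR-200a reached 1562 and miR-429 995 CPM, and in pericardial fat of animal 3 they had 324 and 142. The other tested members, miR-200c and miR-183, were not called (adjusted p = 0.389 and 0.443). The calls of miR-200a and miR-429 rest on animal 6: with animal 6 left out, miR-200a had an adjusted p of 0.729 and miR-429 one of 0.991.

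**Figure D5:**
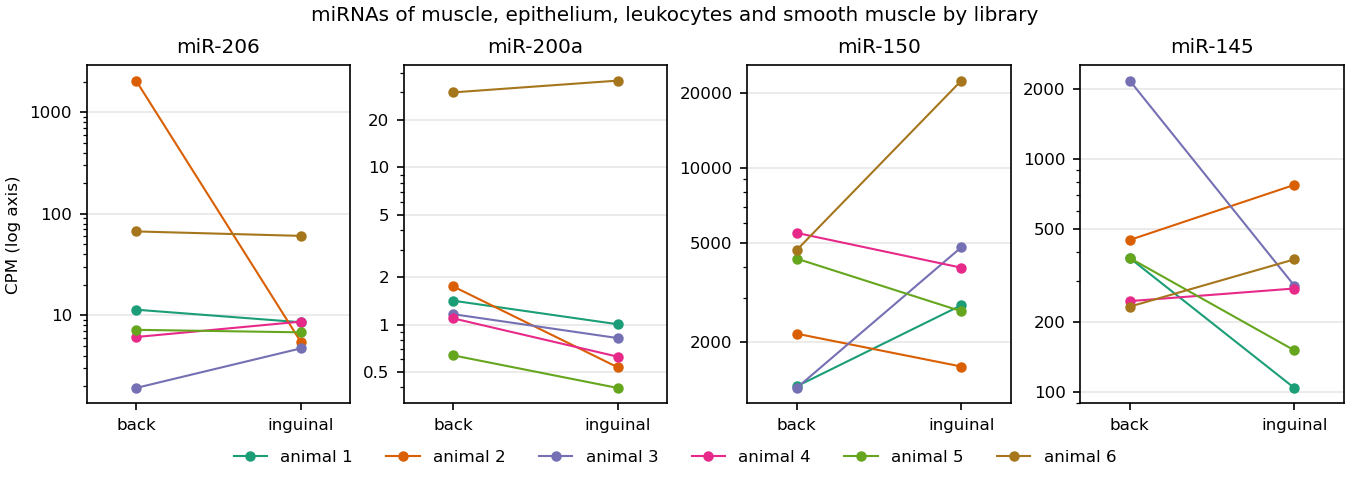
CPM (log axis) of miR-206, miR-200a, miR-150 and miR-145, markers of other cell types, in back and inguinal fat, with 1 line per animal. Single libraries or animals stand out: animal 2 in back for miR-206, animal 6 in both depots for miR-200a and in inguinal fat for miR-150, and animal 3 in back for miR-145.

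Features could also be present in 1 depot alone. Of the 1682 features 1485 had a read in at least 1 of the 12 libraries, 549 in all 12 and 1211 in both depots, while 143 were seen in back alone and 131 in inguinal fat alone. The widest such split was a candidate locus with 28 reads in all, found in 6 back and 0 inguinal libraries. These counts were chosen after the data were seen and carry no test.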

How the data were processed

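The authors deposited whole-number read counts per feature and library, and the same reads as RPM. Each deposited RPM value matched its count over the library total to within 4.79e-06, and RPM were used only in the limma alternatives. Per the labels' protocols, a TruSeq RNA LT kit was used for libraries and an RNeasy lipid tissue kit for RNA. For the genome build, aligner and miRNA caller, a name is not given in the sources used. The submitters' processing notes name DESeq2 1.24.0 without saying what it did. A blank line with 0 counts was left out (1 row), which is 0 of the reads. Features carry bovine miRNA names or an identifier of a candidate locus, without coordinates.

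Depot and animal come from the labels. The same 6 animals gave both depots, so each back library is paired with the inguinal library of its animal. After depot means were removed, paired libraries had a mean correlation of 0.248 and unpaired ones −0.0496, and 5 of the 6 paired values were over 0.1. No 2 libraries agreed within sampling noise (smallest chi-square per degree of freedom 1196). The labels do not say that a library is other than 1 extraction, so spread between libraries holds both animal and technical variation.

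Counts of the 12 libraries were tested in R 4.3.3 with edgeR 4.0.16 (TMM factors 0.852 to 1.28, filterByExpr with a minimum count of 10, estimateDisp, robust glmQLFit, glmQLFTest). The model had depot and animal terms and 5 residual degrees of freedom, and the biological coefficient of variation was 0.528. Tests were two-sided with Benjamini-Hochberg adjustment over 524 features and a threshold of 0.05. Each SE was taken as the absolute log2 difference over the root of the F statistic. CPM use TMM-scaled totals, and an animal's own difference uses log2 CPM with a prior count of 2. Sternal fat was tested in a fit over 36 libraries. Counting error weighs most on scarce features.

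Named miRNAs had a mean of at least 10 CPM and 1 direction in at least 5 of 6 animals, 10 in each direction, those called first and then by smallest p. Added were all tested HOX-cluster, red blood cell and leukocyte members, the 5 most abundant miRNAs and up to 3 members of smallest p in each other of 23 lists. Other list members and miRNAs named in the text, such as miR-27b and miR-103, were chosen after their values were seen. The comparison, the lists and the naming rule were chosen with earlier results of these data known.

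Alternatives were no animal block, all 36 libraries, no filter on low counts, a floor of 10 CPM on the mean, RLE factors or library totals in place of TMM, DESeq2 1.42.0, limma 3.58.1 on log2(RPM + 1) and log2(RPM + 10), each animal left out, and the back library of animal 2 or 4 left out. The library names carry a letter, A for the back library of animal 4 alone and B for the other 11, whose meaning is not given. Leaving out that library is therefore the within-letter value.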

Additional observations from a re-analysis of the deposited data

Results flagged for a closer look

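In 162 groups of 6 libraries (81 named features in 2 depots) 15 had 1 library far from the other 5 by Dixon's gap criterion. Chance alone marks about 1 in 20 groups, and groups of the same library or miRNA family are not independent.

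The back library of animal 3 held 8 of the 15. miR-145 was at 2166 CPM there against 233 to 450 in the other back libraries, miR-126-5p of endothelial cells at 3760 against 905 to 1229, and miR-30c at 1001 against 288 to 385. miR-148c was at 248.1 CPM, miR-148b at 27.35 and miR-19a at 7.217, all above the other 5, whose highest were 41.3, 9.78 and 2.66. In the same library miR-181a was low, at 17290 CPM against 29042 to 39232, and so was miR-218, at 17.17 against 24.1 to 26.3. This library also had the highest TMM factor, 1.28.

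The libraries of animal 6 held the other 7. miR-200a was at 30.03 CPM in back and 35.69 in inguinal fat, and miR-429 at 23.96 and 23.85, above at most 1.75 and 1.55 in these depots of other animals. Its inguinal library had miR-155 at 3569 CPM against 366 to 846, miR-206 at 60.55 against 4.71 to 8.65, and miR-411a low at 615.8 against 1478 to 2085.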

How the results depend on the processing

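No feature passed an adjusted p of 0.05 in the 12 paired libraries, nor under any alternative but 2. Without a filter on low counts 12 of 1485 features were called, 6 in each direction, with 6 list members among them, and 83 were at an unadjusted p under 0.05. DESeq2 called 9 of 524, 3 higher and 6 lower in back, with 4 list members. miR-196a, miR-3432a, miR-486, miR-2478 and miR-375 were called by both. The cause was not tested. With a mean of at least 10 CPM 275 features were tested and 30 were at an unadjusted p under 0.05. Without the replicate block 0 were called and 49 were at an unadjusted p under 0.05, beside 50 with it, and 33 were in both sets. The pairing changed no call between back and inguinal fat, as neither fit had any. Leaving out 1 animal gave 28 to 59, the lowest without animal 4 or without its back library, the only one of letter A (28). For sternal fat against the mean of back and inguinal fat 8 features were called, 1 without the replicate block, 15 with library totals alone and 3 to 9 with 1 animal left out. The difference in the share of candidate loci, −0.17 percentage points, ran from −1.33 to 0.57 with 1 animal left out.

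Signs turned for 17 named miRNAs, 15 of them fitted within 0.41 of 0, the others being miR-142-3p (1.04) and miR-200a (0.61). miR-10b was at −0.00905 under RLE factors, −0.0037 with library totals, −0.0379 at 10 CPM, −0.00907 in DESeq2, and −0.0049 in limma with either pseudocount. miR-10a was at 0.0692 over 36 libraries, 0.0225 there without the block and 0.0081 without a filter. miR-142-3p was at −0.43 without the block, −0.31 over 36 libraries without it and −0.0257 in limma with a pseudocount of 10. miR-142-5p was at −1.46 without the block, −0.33 over 36 libraries, −1.36 there without it, and −0.23 and −0.28 in limma. miR-181a was at −0.0232 at 10 CPM, miR-192 at 0.0114 over 36 libraries without the block, and miR-200a at −0.12 and −0.0383 without the block in 12 and 36 libraries. With 1 animal or library left out, the ranges were −0.12 to 0.15 for miR-10b, −0.10 to 0.0266 for miR-10a, −0.15 to 0.17 for miR-181a, −0.31 to 0.66 for miR-142-5p, −0.40 to 0.32 for miR-155, −0.36 to 0.18 for miR-146a, −0.25 to 0.0412 for miR-342, −0.17 to 0.0015 for let-7i, −0.18 to 0.76 for miR-26c, −0.12 to 0.45 for miR-199b, −0.0367 to 0.20 for miR-126-3p, −0.25 to 0.75 for miR-206, −0.23 to 0.14 for miR-192, −0.19 to 0.80 for miR-148c and −0.25 to 0.0456 for miR-449a. The cause of these turns was not tested. Sizes could also change without a turn of sign. Over 36 libraries with the block miR-206 was at 2.54 and miR-133a at 2.13, beside 0.41 and 0.90 in the 12 libraries. Scarce features carry the most counting error: 121 of the 273 features at 10 CPM or more had an interval within 2-fold of 0.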
